A study of Brassica napus with 6 samples.

Results

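The miRNAs described here are those that plants are known to use when phosphate or sulfate runs short: the phosphate families miR399, miR827 and miR2111 and the sulfate family miR395. They were taken by family number from the small RNA and degradome files of shoot apices of Brassica napus (oilseed rape, which carries the A and C genomes of its parent species), sampled at early bolting from plants 3 months old. The 4 families account for 12 of 74 known miRNAs and of 401 listed miRNAs in all, with 10 phosphate and 2 sulfate members, and for 22 degradome records, 8 of 535 from normal and 14 of 554 from rod-like apices. The study set apices of normal plants against those of rod-like plants, and its title puts the question of which miRNAs and targets shape plant architecture. Each RNA sample held apices of 6 plants from 1 field. No genotype, allele, nutrient supply or further description of the rod-like form is given in the labels, and all plants shared the field and the stage.

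In Arabidopsis, phosphate shortage raises miR399, which moves from shoot to root and cuts the transcript of PHO2, a ubiquitin-conjugating enzyme that limits phosphate uptake and loading. In the same species miR827 cuts the transcript of NLA, a ubiquitin ligase of phosphate transporters, and miR2111 targets a Kelch-repeat F-box gene. The sulfate counterpart, miR395, is raised by sulfate shortage and cuts transcripts of ATP sulfurylases and of a sulfate transporter.

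Sequences of 4 member miRNAs stand in the degradome alignments, and they are shown because the differences between them set how closely each name pairs with the listed sites. Capitals mark the seed, bases 2 to 8.
bra-miR395a-3p: cTGAAGTGtttgggggaactc
bna-miR395f: cTGAAGTGtttggggggactc
bna-miR2111d: tAATCTGCatcctgaggttta
bna-miR2111c: tAATCTGCatcctggggttta
Both miR395 sequences have 1 seed and both miR2111 sequences have another. Counted from the 5′ end, bna-miR395f differs from bra-miR395a-3p by A17G, and bna-miR2111c differs from bna-miR2111d by A15G, so each pair differs outside the seed. All 4 are 21 nt long. By name, bna-miR395f belongs to the small RNA entry bna-miR395d-f and bna-miR2111d to bna-miR2111abd, while bna-miR2111c has an entry of its own.

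The cleaved sites listed for these miRNAs came in 4 groups of letters, shown here 5′ to 3′ with capitals on the bases that face miRNA positions 10 and 11, between which plant miRNAs normally guide cutting.
miR395 site in BnaA03g36860D, BnaA05g16830D and BnaCnng62800D: gagttcctccAAactcttcat
miR395 site in BnaA06g36560D and BnaC07g17320D: gagttcctccAAacacttcat
miR2111 site in BnaA06g32400D: cagacctcagGAtgcagatta
miR2111 site in BnaA02g28650D and BnaC02g36670D: taaacatcagGAtgcagatta
The miR395 sites differ from each other by T15A, counted from the 5′ end of the site. The miR2111 sites differ by T1C, A3G and A6C, from the pair of transcripts with identical sites to BnaA06g32400D.

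For the abundances, each plant type has 2 small RNA files, which the labels describe as separate libraries. Summed over listed miRNAs, the normal files held 625795 and 629101 counts, of which the 4 families took 0.409%. The rod-like files held 712169 and 713637 counts, and the families took 0.747%. The files of a plant type differed by no more than sampling noise (chi-square over degrees of freedom 0.885 for normal and 1.05 for rod-like), so they were counted as 1 sample and each plant type has n = 1. Ratios are rod-like over normal. They were taken from mean counts over the files, expressed per 1000000 listed miRNA reads (RPM) after TMM scaling in edgeR. Their exact 95% intervals reflect counting error alone. A ratio therefore compares these libraries and has no check against the spread between plant pools. All intervals, those of shares and within-library ratios included, were taken at the mean count of a file. They are wider than intervals from the summed reads of both files, which were not computed. In RNA of a whole apex, fewer cells that hold a miRNA and fewer copies in each cell cannot be told apart. The small RNA tables list miRNAs alone, so the labelled tissue was not checked against marker genes here.

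**Figure D1:**
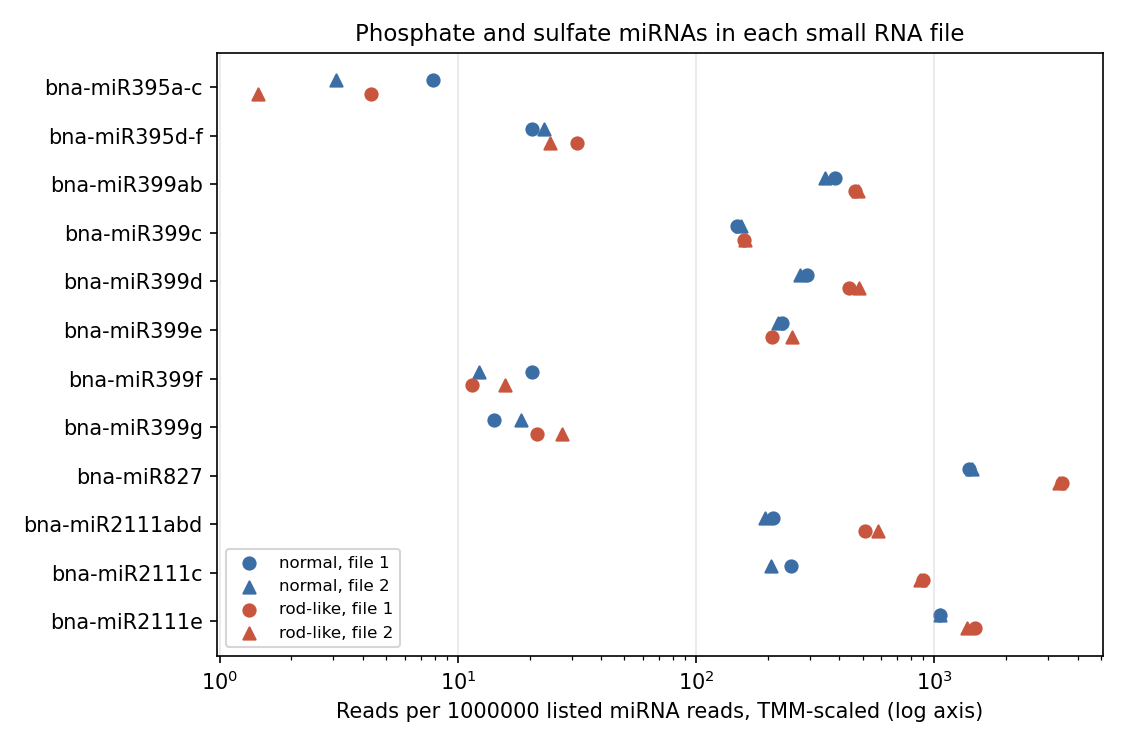
Abundance of the 12 phosphate and sulfate miRNAs in each of the 4 small RNA files, in TMM-scaled reads per 1000000 listed miRNA reads on a log axis. Files of a plant type lie close together for the abundant miRNAs, and miR827, miR2111abd and miR2111c stand at least 2-fold higher in both rod-like files than in both normal files, while the miR395 entries lie at or under 31.5 RPM in every file.

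Phosphate families were far more abundant than the sulfate family, and their summed reads were higher in rod-like apices. The phosphate families together went from 3970 RPM in normal to 7617 RPM in rod-like apices, a ratio of 1.92 (95% counting interval 1.83 to 2.01), or 1.36 (1.30 to 1.43) with scaling on known miRNAs alone. The miR395 family stood at 27.2 and 30.9 RPM, and the counting interval of its ratio of 1.13 ran from 0.575 to 2.26, so no change was detectable at this depth. Its direction also turned without rod-like replicate 1, where the log2 ratio was -0.07, and under scaling on known miRNAs alone, where it was -0.31.

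Of the 12 miRNAs, 11 passed the filter on low counts, and 3 of these stood at least 2-fold higher in the rod-like sample and 0 at least 2-fold lower. With TMM scaling on known miRNAs alone 1 of the 3, bna-miR2111c, still stood at least 2-fold higher. In the main scaling, of all 391 miRNAs that passed, 4.6% were at least 2-fold higher, and of the 65 known ones 16.9%. At least 2-fold lower were 10 of the 391 and 3 of the 65, so few stood that far down in either set. These shares and counts were not taken under the scaling on known miRNAs alone. The median log2 ratio of the members that passed was 0.43, beside 0.41 for known miRNAs, the members included, and -0.01 for all. In edgeR's quasi-likelihood test, which takes the 4 files as replicates and so measures only the spread between files, 6 of the 11 passed a Benjamini-Hochberg adjusted p of 0.05, all higher in rod-like files. That test called 16.6% of all miRNAs and 52.3% of known miRNAs higher. The 6 were miR827, the 3 miR2111 entries, miR399ab and miR399d. With known miRNAs alone setting the scaling, the same test called 4 members higher and 2 lower. It then no longer called miR2111e and miR399ab, and called miR399c and miR399e lower. Of the 65 known miRNAs it called 22 higher and 23 lower under that scaling.

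Scaling decides how many of these directions hold. With TMM factors from the known miRNAs alone, log2 ratios moved by -0.49 at the median. The number of members with a ratio above 1 was then 5 of 12, beside 10 of 12 with DESeq2's size factors and 9 of 12 with the total count. At the mean count of a file, 6 members had a counting interval wholly above 1 in the main scaling. With known miRNAs alone 3 had, namely miR827, miR2111abd and miR2111c. Under that scaling 1 member, miR399e, had an interval wholly below 1 (0.576 to 0.916), beside 0 in the main scaling. The share of all miRNAs with an interval on 1 side of 1, or with a ratio above 1, was not taken. These counts therefore have no background beside them.

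**Figure D2:**
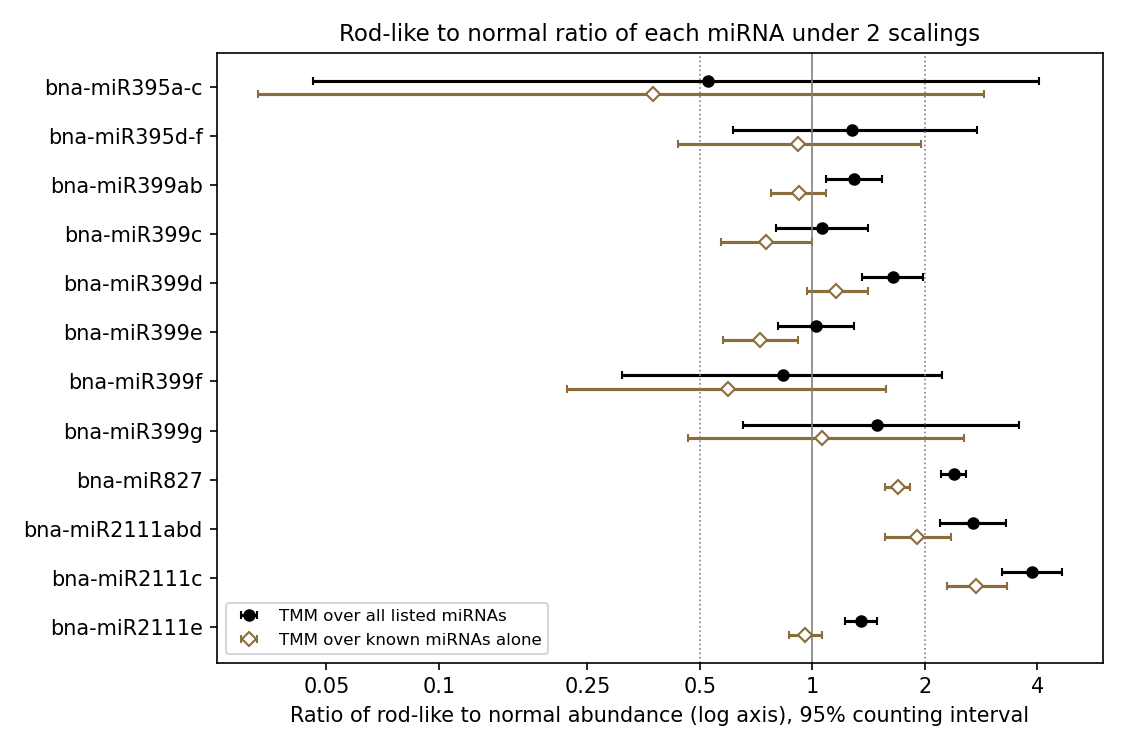
Ratio of rod-like to normal abundance of each of the 12 miRNAs on a log axis, with 95% counting intervals, scaled over all listed miRNAs (filled circles) and over known miRNAs alone (open diamonds); the solid line marks a ratio of 1 and dotted lines ratios of 0.5 and 2. Intervals of miR827, miR2111abd and miR2111c lie above 1 under both scalings, and those of miR2111e, miR399ab and miR399d under the first only. That of miR399e holds 1 under the first and lies below 1 under the second, and those of the miR395 entries hold 1 under both.

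The miR827 family has 1 entry, bna-miR827. Its abundance was 1405 and 1445 RPM in the normal files and 3448 and 3355 RPM in the rod-like files. The rod-like files thus lay above both normal files with a wide gap. The ratio was 2.39 (2.21 to 2.58), and with scaling on known miRNAs alone it was 1.70 (1.57 to 1.83).

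The miR2111 family moved unevenly. The abundance of bna-miR2111c was 251 and 206 RPM in the normal files and 899 and 869 RPM in the rod-like files, a ratio of 3.87 (3.23 to 4.67), or 2.75 (2.30 to 3.32) with scaling on known miRNAs alone. For bna-miR2111abd the normal files gave 211 and 195 RPM and the rod-like files 512 and 582 RPM, a ratio of 2.69 (2.20 to 3.31), or 1.91 (1.57 to 2.35) under the other scaling. Both entries were low beside bna-miR2111e in normal files and had files of the plant types far apart. That dominant entry stood at 1061 and 1053 RPM in the normal files and at 1478 and 1366 RPM in the rod-like files. Its ratio was 1.35 (1.22 to 1.49), but 0.956 (0.867 to 1.06) when scaled on known miRNAs alone, so which way it moved rests on the scaling chosen. For the summed family the ratio was 1.92 (1.77 to 2.07) and 1.36 (1.26 to 1.47) under the same pair of scalings.

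Shares within a family do not depend on the scaling between libraries. In normal apices bna-miR2111e held 71.0% of miR2111 reads (Wilson 95% interval 68.1 to 73.8), and in rod-like apices 49.8% (47.6 to 52.0). The share of bna-miR2111c went from 15.3% (13.1 to 17.7) to 31.0% (29.0 to 33.1), and that of bna-miR2111abd from 13.7% (11.6 to 15.9) to 19.2% (17.5 to 21.0). The rod-like sample thus held a more even mixture of the 3 entries. Measured against bna-miR2111e in the same library, the level of bna-miR2111c in rod-like apices was 2.88 times that in normal apices (2.35 to 3.58) and for bna-miR2111abd the value was 2.0 (1.60 to 2.53). Against bna-miR2111abd, the corresponding change of bna-miR2111c was 1.44-fold (1.09 to 1.90). How reads of near-identical entries were assigned is not given in the sources used here, and its part in these shares was not tested.

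**Figure D3:**
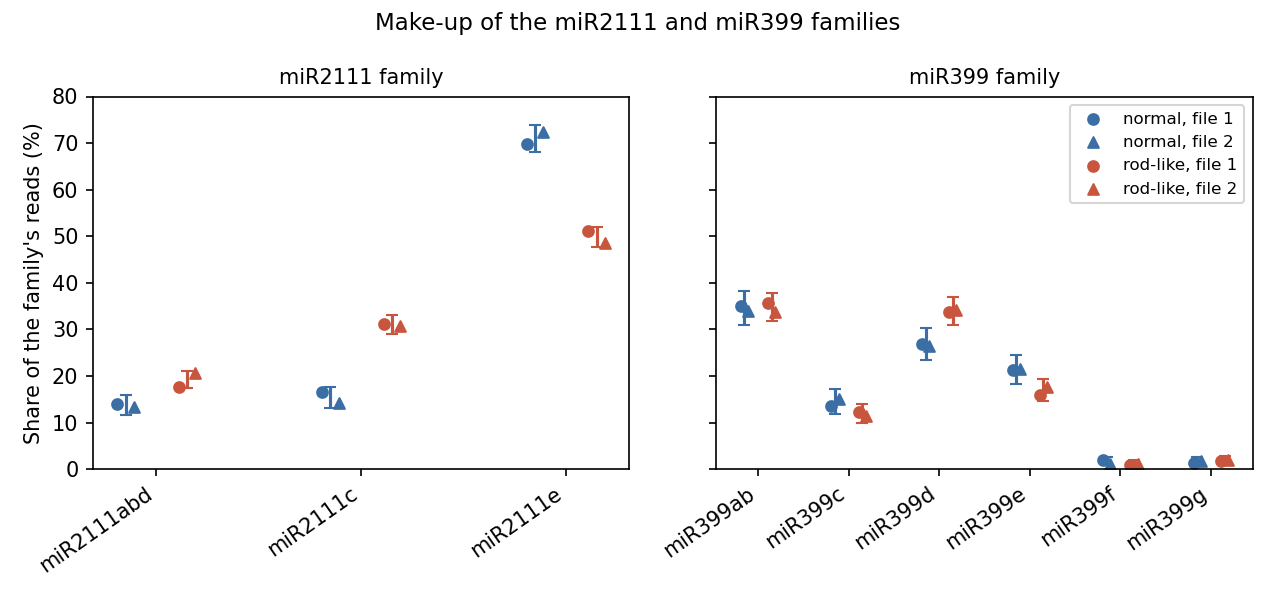
Share of the reads of the miR2111 family (left) and the miR399 family (right) taken by each entry, in percent, in each small RNA file (points) with the 95% Wilson interval of the plant type (bars). The share of miR2111e is 71.0% in normal and 49.8% in rod-like apices while that of miR2111c goes from 15.3% to 31.0%, and the shares in miR399 lie closer together.

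The miR399 family, listed as 6 entries, had a smaller ratio. Summed, it went from 1056 to 1362 RPM, a ratio of 1.29 (1.17 to 1.43), but 0.917 (0.830 to 1.01) when known miRNAs alone set the scaling, so whether the family was higher rests on that choice. The member with the most reads, bna-miR399ab, had 382 and 349 RPM in the normal files and 466 and 479 RPM in the rod-like files, a ratio of 1.29 (1.09 to 1.54), or 0.920 with scaling on known miRNAs alone. For bna-miR399d the normal files held 292 and 272 RPM and the rod-like files 440 and 483 RPM. Its ratio was 1.64 (1.36 to 1.98), or 1.16 (0.968 to 1.41) with scaling on known miRNAs alone. The other entries showed no difference beyond counting error in the main scaling. The ratio was 1.06 (0.800 to 1.41) for bna-miR399c and 1.02 (0.810 to 1.29) for bna-miR399e, whose files overlapped. With scaling on known miRNAs alone these ratios were 0.754 and 0.726 (0.576 to 0.916). The scarce entries bna-miR399f and bna-miR399g had 8 to 19 counts per file and ratios of 0.834 (0.309 to 2.22) and 1.49 (0.653 to 3.58).

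Within miR399, the share of bna-miR399d went from 26.7% (23.5 to 30.2) to 33.9% (31.0 to 37.0) of the family's reads, and bna-miR399ab held 34.6% and 34.7%. Against bna-miR399e in the same library, the level of bna-miR399d in rod-like apices was 1.60 times that in normal apices (1.19 to 2.16), and against bna-miR399c 1.55 times (1.10 to 2.16). Of 19 such pairs of entries within the families, 5 had an interval without 1: these 2 and the 3 of miR2111. The intervals were taken at the mean counts of a file and were not adjusted for the number of pairs.

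The sulfate family had few reads. The counts of bna-miR395d-f were 13 and 15 in normal apices, file by file, against 22 and 17 in rod-like apices, or 20.5 and 23.1 RPM beside 31.5 and 24.4 RPM. The rod-like files lay just above the normal ones, and the ratio of 1.28 (0.614 to 2.76) was within counting error. The counts of bna-miR395a-c came to 5 and 2 for normal, against 3 and 1 for rod-like apices, a ratio of 0.527 (0.0460 to 4.05), and this entry did not pass the filter on low counts.

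Set against each other within a library, the phosphate families had 146 reads for each miR395 read in normal and 247 in rod-like apices. By file the normal values were 141 and 150 and the rod-like values 213 and 293. The rod-like files were above the normal ones, with 17 to 25 miR395 reads in each file. The change of 1.69-fold had a counting interval of 0.859 to 3.33 at the mean counts of a file. Summed reads of both files would narrow this interval and those that follow. Whether the change lies beyond the counting error of all reads was not tested. Without rod-like replicate 1 the interval was 1.01 to 4.22, around 2.01. By family, the change against miR395 was 2.11-fold for miR827 (1.06 to 4.15), 1.69-fold for miR2111 (0.855 to 3.34) and 1.14-fold for miR399 (0.573 to 2.25). The interval for miR827 held 1 without normal replicate 1 and without rod-like replicate 2, at 0.966 to 3.86 and 0.966 to 3.63.

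The order of the families differed between the plant types at the top. In normal apices miR2111 and miR827 did not differ beyond counting error (ratio 1.04, 0.953 to 1.14), and both exceeded miR399, miR827 by 1.35-fold (1.22 to 1.49). In rod-like apices miR827 exceeded miR2111 by 1.19-fold (1.12 to 1.27), and miR2111 exceeded miR399 by 2.09-fold (1.94 to 2.27). The gap from miR399 down to miR395 was 38.7-fold in normal and 44.1-fold in rod-like apices. Ligation and PCR can favour some small RNAs over others, so the order between families describes reads.

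For other mineral nutrients, 8 of 10 listed miRNAs of the nitrogen-linked families miR169 and miR393 passed the filter, none at least 2-fold apart, with ratios from 0.605 for bna-miR169m to 1.95 for bna-miR169p and a median of 0.791. Of the copper families miR397, miR398 and miR408, 4 of 5 passed and 2, both of miR408, were at least 2-fold higher. The passing entries of miR397 and miR398 had ratios of 1.22 and, for bna-miR398b, 1.19, with intervals that held 1. The median of 5.09 lies between these and the miR408 ratios. The highest ratio was 20.8 for bna-miR408b, from a mean of 2.5 counts per normal file and with a counting interval of 6.20 to 129. Of 37 known miRNAs outside the 4 families with a mean of at least 100 counts, those nearest to the miR2111 sum in log2 ratio (0.94) were bna-miR156j (0.95), bna-miR158b (0.91) and bna-miR164b-d (0.84). Nearest to miR827 (1.25) were bna-miR9553 (1.29), bna-miR6030 (1.05) and bna-miR5654 (1.53). This likeness rests on 2 samples.

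In the degradome, which captures 5′ ends of cut transcripts, miR395, the scarcest of the 4 families in reads, had the most records, and miR399 and miR827 had none in either library. The lists give an alignment score, a category, a P-value and a cleavage position for each pair as the target caller wrote them, and all listed P-values are at most 0.048 and scores at most 4.5. A pair missing from a list may have fallen short of such limits. Tag counts are not among the fields, 1 library was made for each plant type, and no difference between the lists was tested. The label of the rod-like degradome library carries the number 3 and those of the rod-like small RNA files 1 and 2, so reads and records may come from different plant pools. None of the 8 target transcripts matched the gene table used here, so their functions are not given.

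For miR395 the normal library listed 6 records on 3 transcripts and the rod-like library 10 records on 5 transcripts, under the names bra-miR395a-3p and bna-miR395f. All were in category 0, which held 76.4% of the normal and 89.6% of the rod-like records of named miRNAs. The 3 transcripts in both libraries were BnaA03g36860D and BnaCnng62800D, each at position 386, and BnaA05g16830D at position 389. They had the site with gagttcctccAAactcttcat, printed above. In the rod-like library alone, BnaA06g36560D and, at position 1433, BnaC07g17320D were listed, with the other miR395 site.

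The site groups differ where the seed pairs. Written on the miRNA's strand, with the miRNA base first, its position from the 5′ end, and then the complement of the site's base, all 5 sites have the mismatch C1A and the G:U pair G14A with both miRNAs. The 3 sites listed in both libraries have T7A in addition, a mismatch inside the seed, and the 2 sites listed in the rod-like library alone do not. The G at position 17 of bna-miR395f adds the G:U pair G17A at every site. Scores were accordingly 2.5 and 3 for bra-miR395a-3p and bna-miR395f at the first group and 1.5 and 2 at the second, a lower score being a closer match. In all 22 records the score equalled the number of mismatches plus 0.5 for each G:U pair. The better-matched sites were thus those listed in 1 library.

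For miR2111 the normal library listed 2 records on 1 transcript and the rod-like library 4 records on 3 transcripts. All were in category 1, which held 7.55% and 9.12% of the records of named miRNAs. The transcript in both libraries was BnaA06g32400D at position 268, with scores of 1.5 for bna-miR2111d and 2 for bna-miR2111c. Its site has the mismatch A21G and the G:U pair T19C with both names, and G15A with bna-miR2111c. In the rod-like library alone, bna-miR2111d was listed at position 220 of BnaA02g28650D and of BnaC02g36670D, transcripts named after the A and the C genome with 1 shared site. Their score was 1, from the single mismatch G16T. By the same arithmetic bna-miR2111c would score 1.5 at these sites, lower than its listed 2 at BnaA06g32400D, yet no record pairs it with them.

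Counted as pairs of family and target, the normal library listed 4 and the rod-like library 8, of which 4 were shared, 100% of the normal and 50.0% of the rod-like list. Among other named miRNAs 151 pairs were shared, 77.0% of 196 normal and 83.0% of 182 rod-like pairs. No other miRNA name, predicted ones included, was listed on the 8 transcripts. The added listings in the rod-like library were 2 from miR2111 and 2 from miR395.

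Reads and listed targets can be set side by side for the 38 known families. By mean count per file miR827 ranked 13, miR2111 14, miR399 17 and miR395 35, with 1642, 1472, 813 and 19.5 counts. Degradome records were listed for 23 of the 38. Of the 12 families above miR827, 8 had records, and of the 16 above miR399, 11 had. Of the 3 families below miR395, 1 had records: miR159, with 4.75 counts per file and 12 targets in each library. Records for a scarce family were therefore not particular to miR395, and an abundant family without records not particular to miR827 or miR399.

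**Figure D4:**
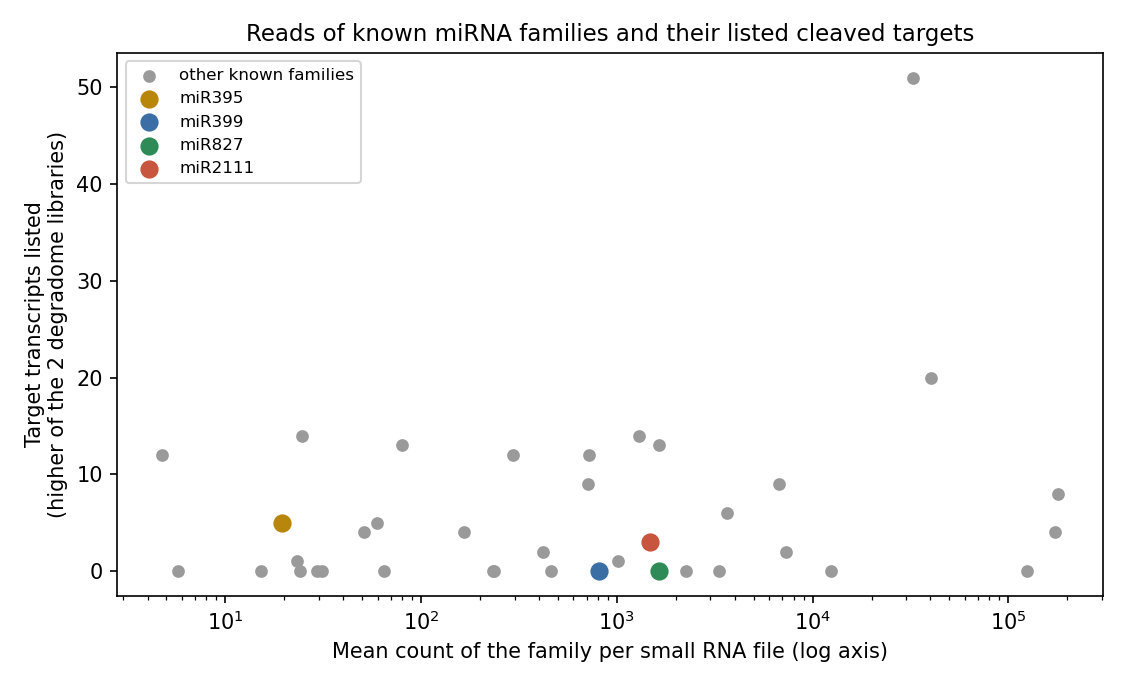
Mean count per small RNA file of each of the 38 known miRNA families (log axis) against the number of target transcripts listed in the degradome library with more of them. The miR395 family has 5 targets at 19.5 counts, miR2111 has 3 at 1472 counts, and miR827 and miR399 have none at 1642 and 813 counts, and 15 of the 38 families have none.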

How the data were processed

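Per the labels' protocols, a gel fraction of 18 to 30 nt from 10 µg of total RNA was ligated, amplified by PCR and read on an Illumina Genome Analyzer. Degradome libraries came from about 200 µg of total RNA, per the labels' protocols. The deposited abundance tables give unnormalized counts for each miRNA, as whole numbers. The degradome files hold alignments with score, category and P-value fields, per the file headers. Not given in the sources used here are the mapper, the annotation and the target caller.

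The members, lists and tests were chosen with earlier results of these data known. Counts of known and predicted miRNAs were joined. The files of a plant type were compared by chi-square, over miRNAs summing to 10 counts or more, and then averaged. Ratios used TMM factors (edgeR 4.0.16, R 4.3.3) and exact conditional intervals from mean counts. Shares used Wilson intervals and pairs of entries conditional odds ratios, on mean counts rounded to whole numbers (SciPy 1.17.1, Python 3.11.15, pandas 2.3.3). Reads amplified by PCR, with no molecular identifiers described, are not independent molecules, so every interval covers counting error and nothing else. The edgeR test used filterByExpr and robust fitting over all listed miRNAs and was tested on simulated data. The simulation drew its files as replicates, so it cannot show how the test does where each plant type has n = 1. DESeq2 1.42.0 was an alternative, as were other scalings, no filter, a replicate block and each file left out. Every listed miRNA of the 4 families is named, with the 3 known miRNAs nearest in ratio to miR2111 and to miR827 and the extremes of other nutrient families. Of 568 target names, 9 matched the RefSeq gene table (Da-Ae assembly), none of them a target described here.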

Additional observations from a re-analysis of the deposited data

How the results depend on the processing

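With TMM on known miRNAs alone the log2 ratio was -0.12 for the miR399 family, 0.76 for miR827 and 0.45 for miR2111, from 0.37, 1.25 and 0.94 in the main scaling. Members at least 2-fold apart numbered 1, beside 3. The cause was not tested. That scaling moved 8 of the 12 single members beyond their counting intervals, while DESeq2's size factors, the total count and each file left out moved none of the 12. With a limit of 1.5-fold in the main scaling 4 members were apart. The share of all miRNAs apart was not taken at that limit or with known miRNAs alone. With each file left out in turn the log2 ratio was -0.07 to 0.40 for miR395, 0.31 to 0.43 for miR399, 1.23 to 1.28 for miR827 and 0.91 to 0.97 for miR2111, and the change of phosphate against sulfate reads was 1.46 to 2.01.

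The edgeR count of 6 members held with each file left out. It was 5 with DESeq2's Wald test and with the replicate block, both without miR399ab. With known miRNAs alone it was again 6 but with other members: miR2111e and miR399ab were not called, and miR399c and miR399e were called lower. Over all miRNAs edgeR called 110, 71 to 87 with each file left out, the lowest without normal replicate 1, 53 with the replicate block, 57 with DESeq2's Wald test and 45 with known miRNAs alone, where 65 were tested. Files with the same number did not deviate together (r = -0.087 over 109 miRNAs), so the numbers are not shown to pair the files. Shared degradome pairs numbered 8, not 4, when each miRNA name was counted, and stayed at 4 by position, in categories 0 and 1, and at scores of at most 4. Depth limits miR395, with 17 to 25 reads per file and a ratio interval, at the mean count of a file, from 0.575 to 2.26.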
